A study of Homo sapiens with 8 samples.

Results

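The genes of the proteasome and of its assembly factors were described in CAKI1 cells, a human renal carcinoma line, with and without holo lipocalin-2 (hLcn-2), the iron-loaded form of this secreted carrier protein. Members were the rows of the expression table whose symbol starts with PSMA to PSMG and a number, or is POMP or ADRM1, without pseudogenes. This gave 51 of 16782 genes, and all 51 passed the filter on low values (at least 1 CPM in at least 2 samples), as did 15593 genes in all. Of the 51, 47 encode subunits, regulators or assembly factors. The other 4 are the antisense RNAs PSMA3-AS1, PSMB8-AS1 and PSMG3-AS1 and PSMC3IP, whose product was named as a partner of PSMC3 but acts in meiotic recombination. The 47 comprised 16 core genes (7 alpha, 7 beta and the 2 immune beta genes PSMB8 and PSMB9), 21 cap genes (6 ATPases and 15 others), 5 assembly factors, 4 activators and 1 inhibitor. PSMA8, PSMB10 and PSMB11 were not analysed here.

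The proteasome is the protease that degrades ubiquitin-tagged proteins in the cytosol and nucleus. Its core is a barrel of stacked rings, in which alpha subunits gate the entry and beta subunits carry the catalytic sites, and its cap binds ubiquitin chains, removes them and uses ATPases to unfold the substrate and feed it into the barrel. Immune beta subunits replace catalytic ones after interferon, and the transcription factor NRF1 (NFE2L1), with its relative NRF2 (NFE2L2), is known to raise proteasome genes when proteolysis or the redox state is disturbed.

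The 8 samples were 4 unstimulated controls and 4 samples exposed for 24 h to hLcn-2 (5 µg/ml), all after 24 h without serum, numbered 1 to 4 in each group. RNA was read at its 3′ ends with molecular identifiers, so that each read stands for 1 molecule and values were not divided by transcript length. Values are normalized counts, on the scale of CPM, the count of a gene per unit of a library size scaled by the authors. The labels give no separate cultures for the replicates, so p-values measure the spread between these samples, and in bulk RNA fewer expressing cells and less RNA per cell cannot be told apart.

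Depth ran from 1501563 reads (control 4) to 13953090 reads (control 1), a range of 9.29 times, and the worth of 3 reads, the lowest value taken as shown, from 0.211 to 1.98 CPM. The mitochondrial rRNA RNR2 took 3.31 to 7.10% of the reads and was highest in hLcn-2 sample 3. Of 11 markers of renal epithelial tumour cells, the 10 analysed here were at 1 CPM or more in every library, with PAX8 between 201 and 245 CPM, and 12 markers of leukocytes, endothelium, blood and muscle were not analysed here.

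No proteasome gene passed the test between hLcn-2-treated cells and controls at an adjusted p of 0.05. In the limma fit without a block, 0 of the 47 genes were called, where 0% of all 15593 genes were called. With same-numbered samples blocked, limma called 44 genes, or 0.282% of all, and edgeR's quasi-likelihood test called 233, or 1.49%, with 0 of the 47 among either. None of the 47 reached an unadjusted p of 0.05 or less in the unblocked fit, against 2.28% of all genes, where 355 genes did, and 0 of the 47 had groups that did not overlap, against 1.88% of all genes. The log2 fold changes (hLcn-2 minus control, on the scale of log2(CPM + 1)) lay between -0.30 (PSMC3) and 0.29 (PSMG1), with a median of 0.03 (27 higher, 20 lower) beside 0.00 for all genes tested.

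These data bound the size of a difference for each gene. In the limma fit without a block, all 47 of the unadjusted 95% intervals held 0, all 47 lay inside -1 to 1, and 26 lay inside -0.5 to 0.5. The lowest bound was -0.82 (PSMC3) and the highest 0.92 (PSMB3). With same-numbered samples blocked the intervals were narrower, with 44 inside -0.5 to 0.5 and bounds between -0.47 (PSMC3) and 0.64 (PSMA6). Of these blocked intervals 43 held 0, and those of PSMC3 (-0.47 to -0.13), PSMG1 (0.10 to 0.49), PSMD11 (0.05 to 0.39) and PSMD4 (0.0048 to 0.49) did not, before any adjustment for the number of genes. The genes varied between controls with a median coefficient of variation of 18.9%.

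**Figure D1:**
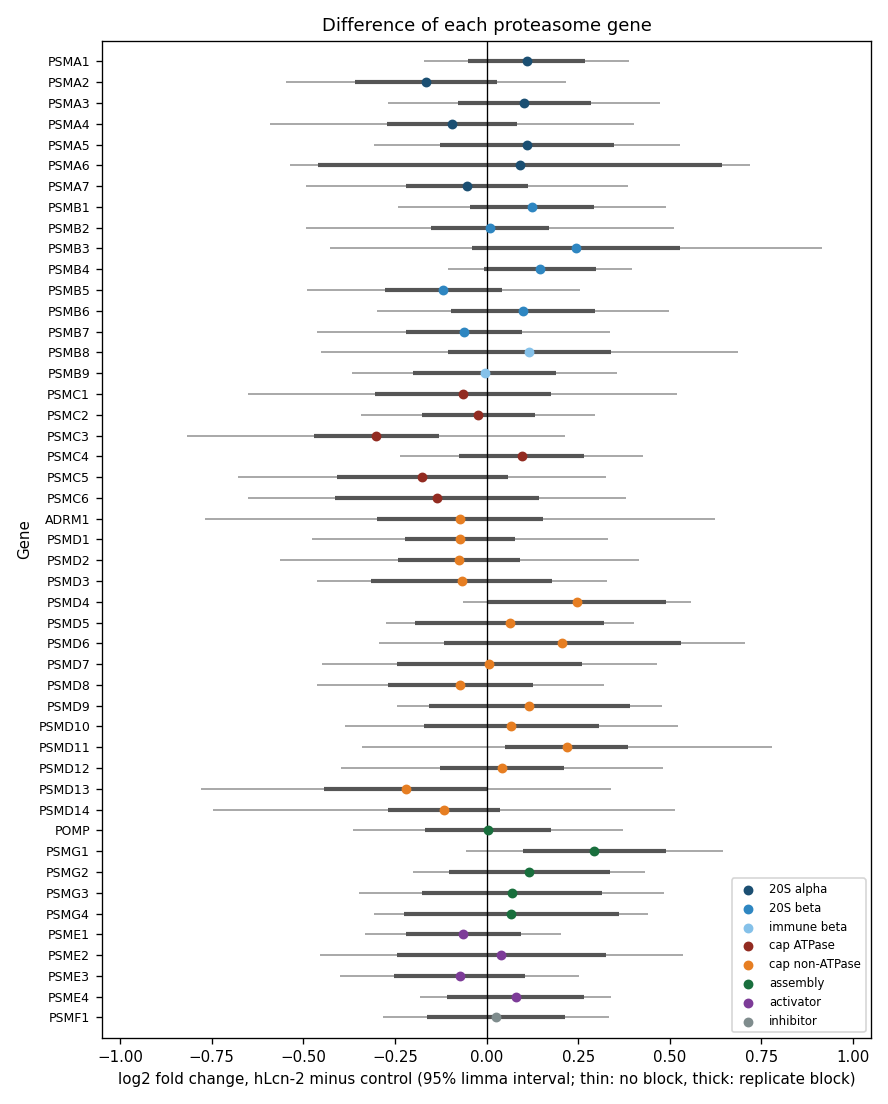
Log2 fold change of each of the 47 proteasome genes (hLcn-2 minus control, x axis) by gene (y axis), with points for the estimate coloured by role, thin bars for the unadjusted 95% limma interval without a block and thick bars for that with the replicate block, from 4 samples a group. The 47 thin bars cross 0, as do 43 of the thick ones, those of PSMC3, PSMG1, PSMD11 and PSMD4 being the exceptions.

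Summed over the whole set, the group means differed by less than the spread between samples. The 47 genes together took 11056, 9990, 7855 and 11190 CPM in controls 1 to 4, and 10694, 10127, 7682 and 11524 CPM in hLcn-2 samples 1 to 4. Both groups thus held the same low sample, number 3, and the same high sample, number 4. Group means were 10023 ± 1542 and 10007 ± 1653 CPM (SD, n = 4), a spread that includes the differences between sample numbers. Within pairs 1 to 4 the log2 ratio of the sums, hLcn-2 over control, was -0.05, 0.02, -0.03 and 0.04. By role, core genes summed to 4313 ± 708 CPM in controls and 4356 ± 723 CPM with hLcn-2, cap genes to 3835 ± 640 and 3767 ± 770 CPM, assembly factors to 1121 ± 222 and 1133 ± 108 CPM, and activators with the inhibitor to 753 ± 45.4 and 750.1 ± 92.1 CPM.

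**Figure D2:**
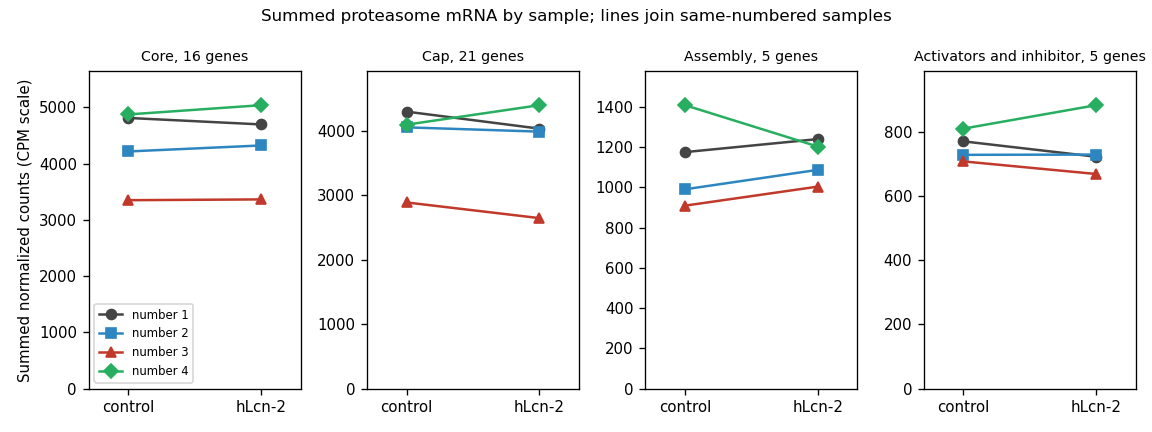
Summed normalized counts (CPM, y axis) of core, cap, assembly and regulator genes in each sample, in controls and hLcn-2-treated cells (x axis), with lines joining samples of the same number. Core sums stay within 3350 to 5039 CPM, and number 3 is the lowest sample of both groups in all 4 panels.

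Core genes had a median log2 fold change of 0.10 (10 higher, 6 lower), which was -0.06 without control 3. The alpha genes, whose products form the outer rings and the gate, were at 0.09 (4 higher, 3 lower). PSMA7 had the highest level of them, with 882, 772, 554 and 859 CPM in controls 1 to 4 and 753, 755, 515 and 952 CPM in hLcn-2 samples 1 to 4. Its fold change was -0.05 (SE 0.20), the smallest of the alpha genes. PSMA1 was listed at 356, 313, 304 and 383 CPM in controls and at 396, 371, 319 and 374 CPM after hLcn-2, which was higher in 3 of 4 pairs (log2 0.11, SE 0.13, two-sided exact permutation p = 0.286). PSMA2 was listed at 138, 108, 106 and 147 CPM in controls and at 129, 112, 81.0 and 125 CPM after hLcn-2, which was lower in 3 of 4 pairs (log2 -0.17, SE 0.18, exact permutation p = 0.457). In both genes the ranges of the groups overlapped.

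PSMA6, singled out after its values were seen, stood apart from the other alpha genes by its level. It was listed at 2.75, 4.43, 3.00 and 6.58 CPM in controls and at 3.92, 3.24, 6.42 and 4.13 CPM after hLcn-2, from 10 to 59 reads a library, while the other alpha genes lay between 52.0 and 952 CPM. In GENCODE 44 (GRCh38), PSMA6 lies on the plus strand of chromosome 14, from 35278633 to 35317493, and 481 of the last 500 nucleotides of its main transcript also lie in exons of a readthrough gene on the same strand. PSMA2 shares all 500 such nucleotides, and PSMA1 219, with readthrough genes, at levels of 81.0 to 147 and 304 to 396 CPM. Reads in such shared exons can be left out or split by the counting, so the level of PSMA6 is uncertain. The part of the overlap in its low level was not tested.

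The beta genes, of which only PSMB5, PSMB6 and PSMB7 encode catalytic subunits, had a median log2 fold change of 0.10 (5 higher, 2 lower). PSMB5 encodes the subunit with chymotrypsin-like activity, the main target of proteasome inhibitors. It was listed at 535, 401, 376 and 591 CPM in controls and at 484, 397, 366 and 488 CPM after hLcn-2, lower in 4 of 4 pairs, by between 0.01 and 0.28 on the log2 scale, with groups that overlapped (log2 -0.12, SE 0.17, exact permutation p = 0.486). PSMB6, for caspase-like activity, was listed at 360.3, 301, 263 and 363 CPM in controls and at 319.6, 357, 256 and 466 CPM after hLcn-2 (log2 0.10, SE 0.18). PSMB7, for trypsin-like activity, was listed at 433, 335, 267 and 431 CPM in controls and at 387, 312, 281 and 414 CPM after hLcn-2 (log2 -0.06, SE 0.18). For none of these catalytic genes did the groups separate.

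The non-catalytic beta gene PSMB4 gave the smallest exact permutation p of the 47, 0.0857, where 4 samples against 4 allow 0.0286 at the least. It was listed at 329, 331, 322 and 365 CPM in controls and at 390.0, 353, 346 and 402 CPM after hLcn-2 (log2 0.15, SE 0.12), higher in 4 of 4 pairs, and only control 4 lay above the lowest treated samples. PSMB3 had the highest bound of any unblocked interval, and its controls were split, with 82.2 and 95.7 CPM in numbers 1 and 2 and 35.3 and 39.5 CPM in numbers 3 and 4. After hLcn-2 it was listed at 80.1, 86.2, 48.9 and 65.0 CPM (log2 0.24, SE 0.31). The smallest change of a beta gene was that of PSMB2 (0.01, SE 0.23), listed at 291, 261, 159 and 255 CPM in controls and at 278, 270.2, 151 and 279 CPM after hLcn-2.

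Immune beta genes were detected in every sample, treated or not. PSMB8, whose product takes the place of PSMB5, was listed at 143, 133, 72.4 and 87.6 CPM in controls and at 181, 109, 82.4 and 102 CPM after hLcn-2 (log2 0.12, SE 0.26). PSMB9, whose product takes the place of PSMB6, was listed at 149, 130.3, 122 and 199 CPM in controls and at 146, 154, 124 and 166 CPM after hLcn-2 (log2 -0.01, SE 0.17). Their share against the constitutive partner did not pass an exact permutation test, which took no account of the replicate numbers. The ratio of PSMB8 to PSMB5 was 0.235 ± 0.0805 in controls and 0.271 ± 0.0742 with hLcn-2 (SD, n = 4, exact permutation p = 0.514, higher in 3 of 4 pairs), and that of PSMB9 to PSMB6 was 0.465 ± 0.0591 and 0.432 ± 0.0553 (exact permutation p = 0.457). The annotation places the antisense RNA PSMB8-AS1 on the plus strand of chromosome 6 (32844078 to 32846500). There it lies across the start of PSMB8, which ends at 32844679 on the minus strand. It also covers the outer boundary of PSMB9 (32844136, plus strand), whose promoter used below lies at 32853942 to 32854241. PSMB8-AS1 was listed at 14.0, 14.3, 15.9 and 17.1 CPM in controls and at 16.3, 12.4, 13.8 and 13.5 CPM after hLcn-2. PSMA3-AS1 was listed at 22.0, 24.0, 24.5 and 29.6 CPM in controls and at 26.9, 24.1, 25.2 and 17.8 CPM after hLcn-2. PSMG3-AS1 lay between 3.38 and 9.69 CPM and PSMC3IP between 0.881 and 3.30 CPM over the 8 samples. Whether the counting used strand is not given in the sources used here, so reads of an antisense RNA and of its partner may not be told apart. The same limit applies where exons on the opposite strand cover the end of a main transcript. They cover all of the last 500 nucleotides of PSMC1, PSMD7 and PSMC3IP, 244 of ADRM1 and 4 of PSME1.

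Cap genes had a median log2 fold change of -0.07 (9 higher, 12 lower), which was 0.12 without hLcn-2 sample 3, 0.04 without control 1 and 0.01 without control 2. The ATPases were at -0.10, with 1 of 6 higher and 5 lower. PSMC3, an ATPase of the ring that unfolds substrates, was listed at 153, 131, 93.1 and 182 CPM in controls and at 129, 99.2, 76.0 and 151 CPM after hLcn-2. It was lower in 4 of 4 pairs, by 0.25, 0.39, 0.29 and 0.27 on the log2 scale, although the groups overlapped over most of their range. Its log2 fold change was -0.30 (SE 0.24), with an adjusted p of 0.9999 in the limma fit without a block, 0.139 with the block and 0.0935 in edgeR's quasi-likelihood test with the block.

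PSMC5, another ATPase, was listed at 275, 229.9, 178 and 251 CPM in controls and at 211, 217, 126 and 299 CPM after hLcn-2 (log2 -0.18, SE 0.23), lower in 3 of 4 pairs. PSMC2 was listed at 364, 342, 258 and 317 CPM in controls and at 334, 341, 256 and 327 CPM after hLcn-2 (log2 -0.02, SE 0.15). Besides PSMC3, 1 ATPase had the same sign in 4 of 4 pairs, PSMC4, which was higher with hLcn-2 by between 0.05 and 0.15 on the log2 scale.

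The other cap genes had a median log2 fold change of 0.01 (8 higher, 7 lower). PSMD4, a receptor for ubiquitin chains, was listed at 199, 186, 262 and 194 CPM in controls and at 249, 246, 216 and 281 CPM after hLcn-2 (log2 0.25, SE 0.14, exact permutation p = 0.114). It was higher in 3 of 4 pairs and lower in pair 3, in which control 3 was the highest control. PSMD11, a scaffold subunit that links the cap to the core, was listed at 339, 346, 171 and 263 CPM in controls and at 434, 351, 202 and 317 CPM after hLcn-2 (log2 0.22, SE 0.26), higher in 4 of 4 pairs, by between 0.02 and 0.35.

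PSMD14, the deubiquitinase of the cap, was lower in 4 of 4 pairs, by between 0.09 and 0.13, with means of 278 ± 87.2 and 255 ± 78.3 CPM (SD, n = 4). PSMD6, a scaffold subunit, was listed at 46.7, 47.8, 35.8 and 21.7 CPM in controls and at 45.8, 46.1, 36.0 and 41.3 CPM after hLcn-2 (log2 0.21, SE 0.23). The pairs differed by -0.03, -0.05, 0.01 and 0.90 on the log2 scale, and the gene rested on 33 reads in control 4, the shallowest library. PSMD7, the partner of PSMD14, was listed at 50.995, 49.1, 40.5 and 54.7 CPM in controls and at 48.9, 45.2, 34.6 and 73.9 CPM after hLcn-2 (log2 0.01, SE 0.21). PSMD5, PSMD9 and PSMD10, chaperones of cap assembly that the symbol puts among the cap genes, had fold changes between 0.06 and 0.12.

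Of the assembly factors 5 of 5 had a log2 fold change above 0, with a median of 0.07, and none was called. Without 1 sample or pair this median ran from 0.01 (without pair 3) to 0.16 (without pair 4). PSMG1, a chaperone that starts the alpha ring, was listed at 56.2, 61.7, 43.7 and 50.7 CPM in controls and at 73.5, 74.5, 53.8 and 59.8 CPM after hLcn-2. It was higher in 4 of 4 pairs, by 0.38, 0.27, 0.29 and 0.23 on the log2 scale, and the groups overlapped. Its log2 fold change was 0.29 (SE 0.16), with an adjusted p of 0.9999 in limma without a block, 0.206 with the block and 0.108 in edgeR's quasi-likelihood test with the block.

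PSMG2, the partner of PSMG1, was listed at 60.7, 74.3, 57.8 and 63.2 CPM in controls and at 61.0, 76.4, 79.0 and 62.2 CPM after hLcn-2 (log2 0.12, SE 0.15), and differed mainly in pair 3. The proteasome maturation protein POMP, needed to complete the core, had the highest level of the assembly factors, with 919, 757, 703 and 1144 CPM in controls and 956, 824, 751 and 955 CPM after hLcn-2 (log2 0.00, SE 0.17). POMP made up most of the assembly sum, and in both the sum and POMP pairs 1 to 3 were higher and pair 4 was lower with hLcn-2.

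Counted over the 47, the same-numbered pairs gave shares close to those of all genes. With hLcn-2, 5 members were higher in 4 of 4 pairs (PSMA3, PSMB4, PSMC4, PSMD11 and PSMG1), which is 10.6% of the 47, where 9.93% of all genes were, and 3 members were lower in 4 of 4 pairs (PSMB5, PSMC3 and PSMD14), or 6.38%, where 10.9% of all genes were. The 21 members outside the rule for named genes had log2 fold changes between -0.22 (PSMD13) and 0.12 (PSMB1). An unadjusted p of 0.05 or less in the blocked limma fit was reached by 4 members (PSMC3, PSMG1, PSMD11 and PSMD4), or 8.51%, where 12.2% of all genes reached it.

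**Figure D3:**
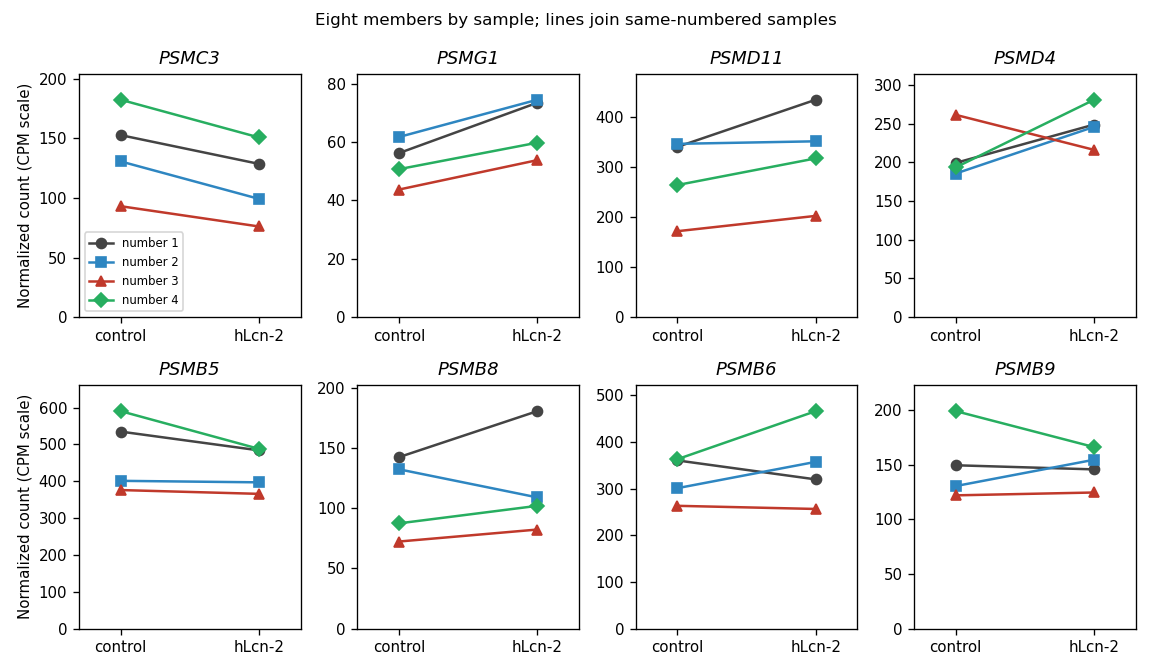
Normalized counts (CPM, y axis, from 0) of 8 members in controls and hLcn-2-treated cells (x axis), with lines joining samples of the same number. PSMC3 lies lower in the treated sample in 4 of 4 pairs and PSMG1 and PSMD11 lie higher in 4 of 4 pairs, while the spread between numbers is wider than these steps, as for PSMC3 with 93.1 to 182 CPM among controls.

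The activators, which dock on the core in place of the cap, and the inhibitor PSMF1 had log2 fold changes between -0.07 and 0.08. PSME1 was listed at 316, 318, 301 and 352 CPM in controls and at 279, 299.6, 298 and 357 CPM after hLcn-2 (log2 -0.06, SE 0.12). Its ring partner PSME2 was listed at 93.0, 84.5, 70.9 and 83.6 CPM in controls and at 99.8, 77.9, 52.8 and 127 CPM after hLcn-2 (log2 0.04, SE 0.23). The ratio of PSME2 to PSME1 was 0.258 ± 0.0275 in controls and 0.288 ± 0.0865 with hLcn-2 (SD, n = 4, exact permutation p = 0.714), with the wider spread in the treated cells. PSME2P6, a pseudogene of PSME2 that the rule leaves out, lay between 17.0 and 49.1 CPM. PSMC1P1, one of PSMC1, lay between 10.1 and 26.5 CPM. Whether reads of PSME2 or PSMC1 were counted in these pseudogenes was not tested.

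PSME3, the activator of the nucleus, was listed at 137, 127, 104 and 145 CPM in controls and at 115, 129.9, 102 and 141 CPM after hLcn-2 (log2 -0.07, SE 0.15). PSME4 was listed at 142, 130.4, 151 and 145 CPM in controls and at 153, 153, 133 and 163 CPM after hLcn-2 (log2 0.08, SE 0.12). PSMF1 was listed at 81.5, 67.7, 80.6 and 84.3 CPM in controls and at 76.0, 68.3, 82.0 and 94.6 CPM after hLcn-2 (log2 0.03, SE 0.14). In all 3 the groups overlapped.

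A pattern by sample number ran through most members. In 35 of the 47 genes (74.5%) the sample numbered 3 was the lowest of its group in both groups, where 20% of all genes tested had this pattern, and where 25.7% of genes with a mean of at least 10 CPM had it. It held in 14 of 16 core genes (87.5%) and 17 of 21 cap genes (81%), but in 2 of 5 assembly factors and in 2 of 5 activators and inhibitor. The count was made after the values were seen, and the number of a sample is no condition of the study.

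The median deviation of the core genes from their mean over the 8 samples was -0.36 in control 3 and -0.33 in hLcn-2 sample 3 on the log2 scale, and between -0.01 and 0.16 in the other 6 samples. For the cap genes it was -0.32 and -0.48, and between 0.07 and 0.21 in the others. Assembly factors were at -0.26 in control 3 and at -0.05 in hLcn-2 sample 3. Of other large complexes, the CCT chaperonin, which folds actin and tubulin, was also low in both (-0.38 and -0.43, with 6 of 8 genes of this pattern), the COP9 signalosome, a relative of the cap, was at -0.16 and -0.25 (5 of 10 genes), and cytosolic ribosomal proteins were at -0.05 and 0.04 (13 of 83 genes).

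RNR2 took the largest share of reads in both number 3 samples, 6.22% in control 3 and 7.10% in hLcn-2 sample 3. With RNR2 left out of the library totals, the median deviation of the 47 genes was -0.31 in control 3 and -0.33 in hLcn-2 sample 3, beside -0.30 and -0.32 with it, and with recomputed TMM factors it was -0.30 in both. As RNR2 took at most 7.10% of the reads, leaving it out could move these medians only slightly. The shallowest library, control 4, was at 0.13. Depth was 5799151 reads in control 3, 2088266 in hLcn-2 sample 3, the lowest of the treated samples, and 1501563 in control 4. The part of depth, or of what the RNR2 share stands for, in this pattern was not tested.

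**Figure D4:**
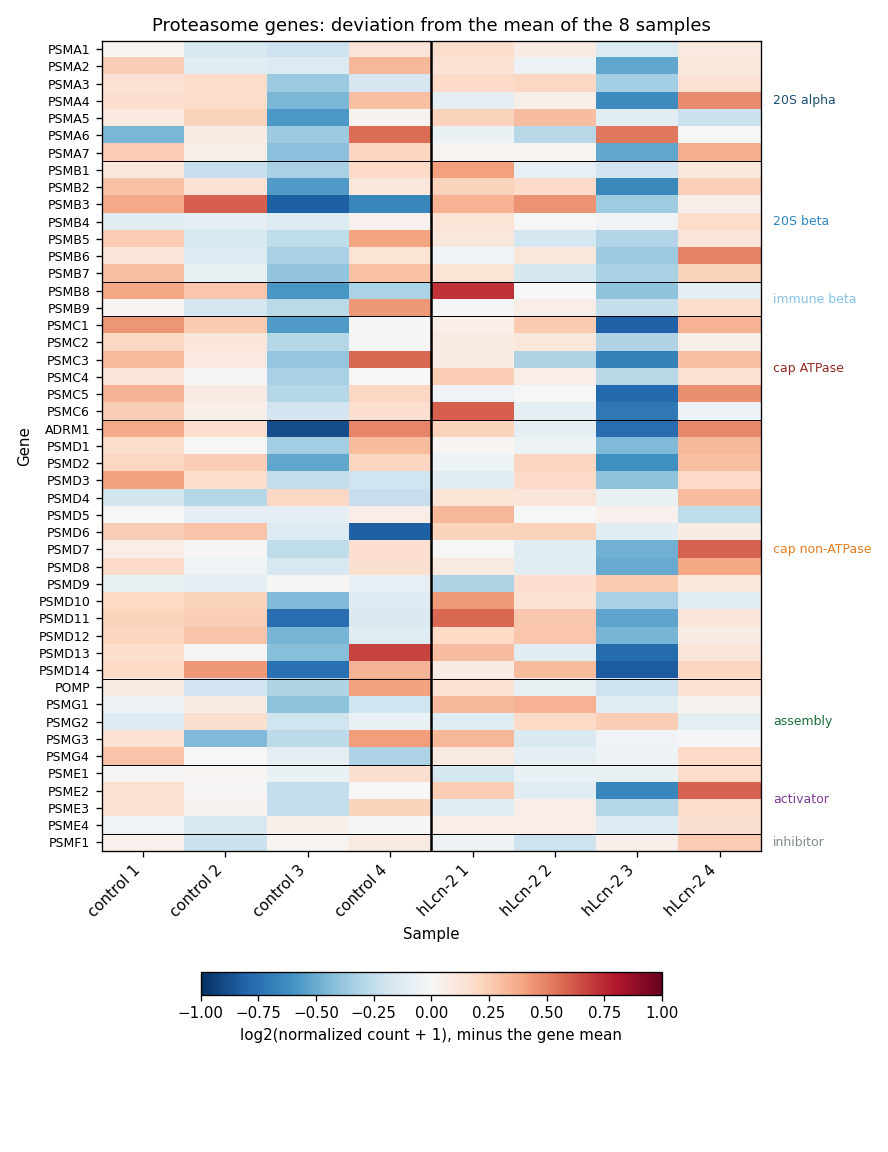
Deviation of log2(CPM + 1) from the gene's mean over the 8 samples (colour, blue low and red high), for the 47 genes (rows, grouped by role) and 8 samples (columns, controls left of the line). The columns of control 3 and hLcn-2 3 are blue through most core and cap rows, with medians of -0.36 and -0.33 for the core.

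**Figure D5:**
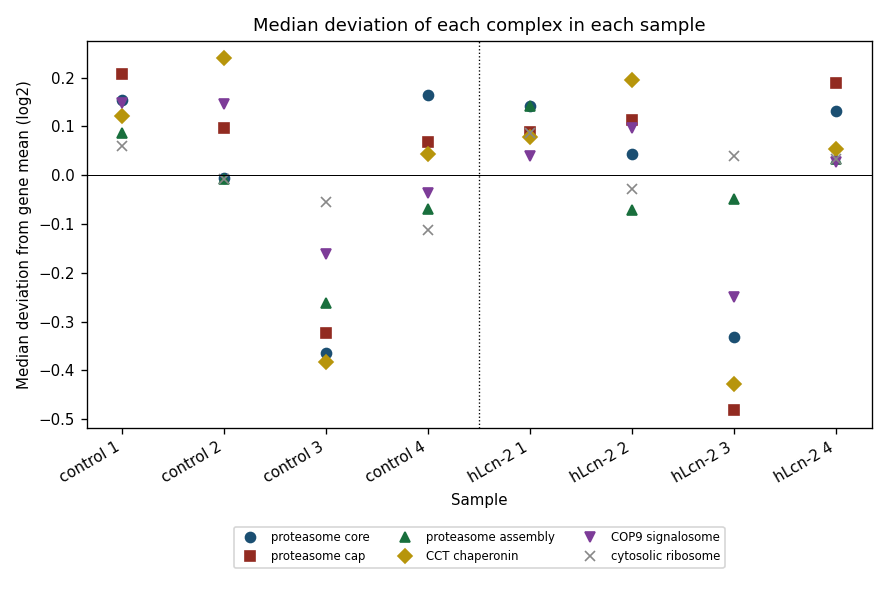
Median deviation from the gene mean (log2, y axis) of the core, cap and assembly genes and of 3 other complexes in each sample (x axis). In control 3 and hLcn-2 3 the core, the cap and the CCT chaperonin lie between -0.32 and -0.48, and the cytosolic ribosome at -0.05 and 0.04.

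Other genes of the pathway were taken from lists of partners, shuttle factors, regulators, ubiquitin genes and the interferon axis. Of these 40 genes, 0 were called by limma with or without the block, where 0.282% of all genes were called with it, and 26 lay higher and 14 lower. The median log2 fold change was 0.12 for 11 partners (6 higher, 5 lower), 0.08 for 6 shuttle factors (4 higher, 2 lower), 0.05 for 11 regulators of proteasome genes (7 higher, 4 lower), -0.01 for 6 ubiquitin genes (3 higher, 3 lower) and 0.07 for 7 genes of the interferon axis (6 higher, 1 lower), with DDI2 in both the shuttle and the regulator list. SEM1, the small cap subunit that the symbol rule leaves out, was at 525 ± 39.6 CPM in controls and 573 ± 82.4 CPM with hLcn-2 (SD, n = 4, log2 0.12, SE 0.13).

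NFE2L1, the main activator of proteasome genes, was at 128 ± 12.5 and 137 ± 11.6 CPM (log2 0.09, SE 0.13). NFE2L2 was at 254 ± 25.9 and 284 ± 32.4 CPM (log2 0.16, SE 0.13), higher in 4 of 4 pairs. MAFG, a small MAF protein that pairs with both on DNA, was listed at 240.2, 275, 320.1 and 224 CPM in controls and at 319, 398, 349.5 and 266 CPM after hLcn-2 (log2 0.33, SE 0.16), higher in 4 of 4 pairs. MAFG was the only one of the 40 that edgeR's quasi-likelihood test with the block called (adjusted p = 0.0402), where 1.49% of all genes were called. Its adjusted p in limma was 0.9999 without and 0.123 with the block. Of the 40, 6 were higher and 2 lower in 4 of 4 pairs, where 9.93% and 10.9% of all genes were.

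Promoters from 250 bases before to 50 after the start were on hand for 41 of the 47 genes (RefSeq, GRCh38.p14), and not for PSMA7, PSMB1, PSMB6, PSMB7, PSMD4 and PSMG3. Letters were searched on both strands. The core of the antioxidant response element, TGACNNNGC, at which NFE2L1 or NFE2L2 binds with a small MAF protein, was in 14 of 41 (34.1%) and in 13.6% of all 27305 promoters. The ETS core CGGAAG was in 23 (56.1%, and 19.9% of all), the CCAAT box CCAAT in 19 (46.3%, and 35.7%), the interferon core GAAANNGAA in 7 (17.1%, and 8.3%) and the TATA box TATAAA in 4 (9.8%, and 12%). The shares of all promoters were not matched for expression or base content. A higher share in the members is thus not shown to be particular to proteasome genes. In 1 pair of matches, in POMP, letters of the interferon core and the ETS core overlapped.

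The 14 genes with the antioxidant core had a median log2 fold change of 0.05 (9 higher, 5 lower) and the other 27 one of 0.00 (14 higher, 13 lower). The 19 with a CCAAT box were at -0.02 (8 higher, 11 lower) and the other 22 at 0.05 (15 higher, 7 lower). The 4 with the letters TATAAA were at -0.07 (0 higher, 4 lower) and the other 37 at 0.04 (23 higher, 14 lower). These 4 (PSMC1, PSMC2, PSMC5 and PSMD8) are all cap genes, and their matches lay at -249 to -127 from the start. The ETS core (0.01 in 23 genes, 0.02 in the other 18) and the interferon core (0.00 in 7, 0.02 in the other 34) split the genes less. A match describes letters only, and no test was made. Printed here are windows of the genes at the ends of the fold changes, PSMG1 and PSMC3, of PSMB3, PSMD3 and ADRM1 as further matches of the antioxidant core upstream of a start, and of PSME2, whose product forms a ring with PSME1. Capitals mark the matched letters, of TGACNNNGC in PSMG1, PSMB3, PSMD3 and ADRM1, of CCAAT in PSMC3 and of GAAANNGAA in PSME2. PSMG1, PSMB3, PSMD3 and ADRM1 also held CCAAT in their promoters, outside the printed windows. The log2 fold changes of PSMD3 and ADRM1 were both -0.07. The windows lie, in the order printed, at chr21:39183606-39183654 (minus strand), chr17:38752617-38752665, chr17:39980750-39980798 and chr20:62302739-62302787 (plus strand), and chr11:47426529-47426573 and chr14:24146610-24146658 (minus strand).
PSMG1: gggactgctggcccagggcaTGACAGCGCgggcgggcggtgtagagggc
PSMB3: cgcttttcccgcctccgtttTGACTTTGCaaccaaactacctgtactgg
PSMD3: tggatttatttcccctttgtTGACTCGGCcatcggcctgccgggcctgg
ADRM1: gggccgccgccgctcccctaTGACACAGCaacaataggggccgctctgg
PSMC3: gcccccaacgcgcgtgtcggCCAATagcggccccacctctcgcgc
PSME2: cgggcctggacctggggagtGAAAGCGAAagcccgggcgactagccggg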

How the data were processed

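Single-end 3′ libraries of 4 controls and 4 hLcn-2 samples were, per the labels and methods, aligned to GRCh38 with STAR, collapsed by UMI and counted with HTSeq, and the authors deposited a scaled signal, normalized counts in CPM. All 134256 values came out as whole reads within 0.01 read. The members and lists were chosen with earlier results of these data known. limma 3.58.1 (R 4.3.3, intensity trend, no block, two-sided) was run on log2(CPM + 1) for genes that reached 1 CPM in 2 samples or more, with Benjamini-Hochberg adjustment over all of them. edgeR 4.0.16 and DESeq2 1.42.0 were run on recovered reads as alternatives. Single genes and ratios were tested over the 70 regroupings of 4 against 4, which take no account of the replicate numbers. Deviations of same-numbered samples correlated by 0.31 to 0.61 across genes, so the replicate numbers of the labels were taken as pairs. Named with values in each sample were, per class, the 2 genes of smallest p and the one of smallest change, the catalytic and PSME genes, and the 3 one-sign genes of smallest blocked p. 1 value with a decimal comma was read as a decimal point. Overlaps were read from GENCODE 44 and promoters from RefSeq. Depth limits control 4 most, with 3 reads worth 1.98 CPM.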

Additional observations from a re-analysis of the deposited data

Results flagged for a closer look

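In each group of 4 samples, the gap of the lowest or highest sample to its neighbour was divided by the range of the group (Dixon's ratio) and set against the 95% critical value for 4 samples. Of 94 groups examined (47 genes in 2 groups), 4 passed it, where 4.7 would by chance at 1 in 20, and all 4 were low values of a sample numbered 3. The groups come from the same 8 samples and are not independent, and the 4 flags restate the pattern of number 3 given above. PSMD2, a large scaffold subunit of the cap, was at 309.9 CPM in control 3 (ratio 0.937). In hLcn-2 sample 3, PSMB2 was at 151 CPM (ratio 0.928), PSMA3 at 96.3 CPM (ratio 0.854) and PSMC2 at 256 CPM (ratio 0.843). The other 3 samples of each of these groups lay close together.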

How the results depend on the processing

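None of the 47 genes was called in any of 28 alternative fits, where the smallest adjusted p of a member was 0.0718, for PSMC3 in limma on reads thinned to the lowest total with the replicate block (log2 -0.51, beside -0.30 on all reads). Over all genes, 0 were called by limma, edgeR or DESeq2 without the block, and with the replicate block, which pairs same-numbered samples, 44 by limma, 8 by limma on thinned reads, 233 by edgeR and 173 by DESeq2, but 0 by limma without the intensity trend. The block changed no call among the 47. Leaving out samples or pairs gave 0 to 58 called genes over all genes. Members whose groups did not overlap were 0 to 1 without a sample, and 1 without pair 1 (PSMD9), 0 without pair 2, 2 without pair 3 (PSMD4 and PSME4) and 3 without pair 4 (PSMB4 and PSMD5 higher, PSME1 lower). With fewer samples, groups separate more easily. No share over all genes was at hand for these settings, so the counts are no result about these members. The median of the core genes was 0.020 on thinned reads, and ran from -0.060 (without control 3) to 0.17 (without hLcn-2 sample 3) when 1 sample was left out, and was 0.038 without pair 1 and 0.015 without pair 3. That of the cap genes ran from -0.14 to 0.12 (without hLcn-2 sample 3), and that of the assembly factors from 0.014 to 0.16, with 0.13 without control 1 and 0.14 without control 4. The cause of these shifts was not tested.

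Of 26 named genes, 12 kept their sign under all 28 alternatives but moved in size, with PSMC3 from -0.51 to -0.13, PSMD11 from 0.0011 to 0.43, PSMD4 from 0.15 to 0.42, PSMG1 from 0.21 to 0.38, PSMB3 from 0.013 to 0.49 and PSMB5 from -0.22 to -0.0062, and 14 changed sign at least once, all of them with intervals that held 0 with and without the block. With plain CPM, PSMB2 was at -0.022, PSMD7 at -0.023, POMP at -0.028 and PSMF1 at -0.0058. On thinned reads, with or without the block, PSMB2 was at -0.00096, PSMB8 at -0.032, PSMD7 at -0.047, POMP at -0.051 and PSME2 at -0.0084. PSMB9 was at 0.0061 with TMM factors, 0.013 in edgeR and 0.00061 in DESeq2 with the block, PSMD7 at -0.0032 in DESeq2 with the block, and POMP at -0.0046 in edgeR and -0.016 in DESeq2. When samples or pairs were left out, POMP ran from -0.096 to 0.14, PSMA7 from -0.20 to 0.11, PSMB2 from -0.18 to 0.23, PSMB6 from -0.049 to 0.24, PSMB7 from -0.21 to 0.035, PSMB8 from -0.11 to 0.27, PSMB9 from -0.097 to 0.14, PSMC2 from -0.12 to 0.072, PSMC5 from -0.36 to 0.054, PSMD6 from -0.032 to 0.34, PSMD7 from -0.19 to 0.17, PSME2 from -0.15 to 0.27, PSME3 from -0.17 to 0.0089 and PSMF1 from -0.056 to 0.098. With the block and a pair left out, without pair 1 PSMA7 was at 0.0041, PSMB9 at 0.0046, PSMC2 at 0.0099 and POMP at -0.014, without pair 2 PSMB2 was at -0.0043 and POMP at -0.036, without pair 3 POMP was at -0.027, and without pair 4 PSMB2 was at -0.030, PSMB9 at 0.079, PSMD6 at -0.023, PSMD7 at -0.13, PSME2 at -0.14 and PSMF1 at -0.021. Medians by sample without RNR2 and the background of genes of at least 10 CPM, overlaps without a pair and the blocked intervals were added after the data were seen.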
